A study of Mus musculus with 6 samples.

Results

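The subject is a module of 69 interferon-induced genes and interferon regulatory factors (IRFs) among 19938 genes measured in 6 mouse heart samples. Members were chosen by gene symbol in the platform annotation. The symbols taken were those of the Ifi genes with a number, the Ifit and Ifitm genes, the IRFs, the Oas and Gbp families, Isg, Mx1 and Mx2, the Irgm genes, Igtp and Iigp1, Stat2, and Rsad2, Usp18, Ddx58, Xaf1 and Bst2. Only probe sets with 1 symbol were used, and a gene with several was read from the one of highest average level. The rule itself uses no measured value, but it was chosen with earlier results of these data known. Isg15, Igtp, Irgm2 and Gbp2 were not analysed here, and 7 probe sets with several symbols were left out. The name rule also took 4 genes that are not known as interferon effectors, namely Irf2bp1, Irf2bp2 and Irf2bpl, whose proteins bind or resemble partners of IRF2, and Isg20l2, a relative of Isg20.

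All hearts came from mice of 6 months (P180), and each sample was hybridised to 1 Affymetrix Mouse Gene 1.0 ST array. The Id cKO heart had the genotype Tie2Cre+Id1F/-Id3-/-, so it lacked Id3 everywhere and lost its floxed Id1 allele where Tie2Cre is active, in endothelial cells and many blood cells. Id control 1 was Id1F/+Id3-/-, without Cre and, like Id cKO, without functional Id3. Id control 2 was Tie2Cre+Id1-/-Id3+/-, with Cre, without functional Id1 and with 1 working Id3 allele. WT was a lone heart. A further pair of Id cKO hearts was 1 treated with recombinant mouse IGFBP3, a secreted binding protein of insulin-like growth factors, and 1 untreated. These 2 are called the incubated pair below. Id1 and Id3 are helix-loop-helix proteins that keep E proteins from binding DNA. The number of animals behind a sample is not stated in the labels. Any p-value here rests on the spread between the 2 Id control samples. That spread may be partly technical. It cannot be told apart from their differences in genotype, date code and atrial marker levels, given below.

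Some features of the arrays bear on every comparison. The Id cKO, Id control and WT arrays had median log2 levels from 5.73 to 5.83, whereas the treated and untreated Id cKO arrays had 4.45 and 4.51. Levels are therefore compared across these 2 sets only after quantile normalization, which gives all arrays 1 distribution. Eif2s3y, a Y-linked gene, was at 2.95 in Id cKO, 2.73 and 3.03 in the Id controls and 7.98 in WT. The treated heart had 7.07 and the untreated heart 6.20, so WT and the incubated pair carried a male pattern, the other 3 hearts a female one. The labels hold 3 date codes, which Id cKO, Id control 2 and WT share, Id control 1 has alone, and the incubated pair shares. The labels do not say what the codes date. All 8 cardiomyocyte markers were at 6 or above on every array. Of 7 T cell, 5 B cell, 7 NK cell and 6 neutrophil markers, at most 1 in a list reached 6 on any array, and the defining Cd3d, Cd3e, Cd79a, Ms4a1, Ncr1, S100a8 and S100a9 stayed below 6 on the first 4 arrays. The labels say heart and not which part was taken. The atrial muscle gene Myl7 was at 12.27 in Id control 2, against 5.38 in Id cKO, 5.31 in Id control 1 and 5.28 in WT. In RNA of mixed heart tissue, fewer cells of a type and less RNA per cell cannot be told apart.

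Interferons are secreted signals of antiviral defence. Type I interferons act through the receptor chains Ifnar1 and Ifnar2 and the kinases Jak1 and Tyk2, and activate a complex with Stat2 and Irf9 that binds the interferon-stimulated response element in target promoters. Interferon gamma acts through Ifngr1 and Ifngr2 on promoters with gamma-activated sites, and it induces Irf1, the guanylate-binding proteins (GBPs) and the immunity-related GTPases. In the heart this system is known for limiting virus replication in infected muscle cells, and vessel and immune cells also respond to it.

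Promoters of 6 members are shown because they hold, within 150 bases of the start, the core of the response element (GAAA, any 2 bases, GAAA, on either strand), and because these members differed most in any comparison among those that do. Each stretch is the 150 bases before the transcription start in RefSeq (GRCm38.p6), 5′ to 3′ on the strand of the gene, with the core in capitals.
Gbp2b: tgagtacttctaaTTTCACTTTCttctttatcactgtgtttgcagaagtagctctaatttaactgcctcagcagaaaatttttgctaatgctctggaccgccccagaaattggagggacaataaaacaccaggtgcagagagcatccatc
Ifi205: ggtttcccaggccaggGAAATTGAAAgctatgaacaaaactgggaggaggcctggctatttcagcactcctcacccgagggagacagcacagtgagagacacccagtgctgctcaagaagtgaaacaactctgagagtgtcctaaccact
Rsad2: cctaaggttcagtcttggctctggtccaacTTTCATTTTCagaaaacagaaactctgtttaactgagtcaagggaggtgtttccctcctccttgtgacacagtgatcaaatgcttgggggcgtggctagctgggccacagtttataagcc
Ifitm2: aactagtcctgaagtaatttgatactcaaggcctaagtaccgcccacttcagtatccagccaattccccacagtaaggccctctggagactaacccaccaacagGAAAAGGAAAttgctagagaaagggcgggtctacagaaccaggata
Ifit1: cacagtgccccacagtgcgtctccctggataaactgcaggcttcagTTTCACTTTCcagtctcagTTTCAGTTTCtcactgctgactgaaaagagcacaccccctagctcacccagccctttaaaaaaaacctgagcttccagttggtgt
Ifi203: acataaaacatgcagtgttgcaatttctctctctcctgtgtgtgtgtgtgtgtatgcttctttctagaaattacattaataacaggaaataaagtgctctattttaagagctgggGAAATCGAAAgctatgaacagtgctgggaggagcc

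These stretches lie at chr3:142594697-142594846 (plus strand) for Gbp2b, chr1:174031756-174031905 (minus strand) for Ifi205, chr12:26456453-26456602 (minus strand) for Rsad2, chr7:140955962-140956111 (minus strand) for Ifitm2, chr19:34640739-34640888 (plus strand) for Ifit1 and chr1:173942493-173942642 (minus strand) for Ifi203. The core starts 137 bases before the start of Gbp2b, 134 before that of Ifi205 and 120 before that of Rsad2. It starts 46 bases before the start of Ifitm2 and 35 before that of Ifi203, and Ifit1 has it at 104 and at 85. Over the 250 bases before the start, 24 of the 54 members with a promoter in the table held the core. By promoter, 36.9% of the members' 65 entries held it, against 2.98% of all 32851 in the table. All 5 GTPase genes with an entry held it, as did 7 of 9 Ifi200 genes and 4 of 5 Ifit genes, against 2 of 9 IRFs and Stat2 and 1 of 7 Ifitm genes. The gamma-activated motif TTCNNNGAA, which reads alike on both strands, was in 18.5% of the members' entries and 7.02% of all. A match is a run of letters in a window and not a site shown to be used.

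The 69 members spanned the range from background to high levels. On the 4 arrays of Id cKO, Id control and WT, 42 members averaged at least 6 on the log2 scale, the level above which genes were compared. Members below it on each of these 4 arrays included most of the Oas1 genes, 6 of the 9 Ifi200 genes, Mx1 and Mx2, the antiviral dynamin-like GTPases, and Irf4, a factor of lymphocytes. Mx1, for example, was at 3.59 in Id cKO, 3.46 and 3.52 in the Id controls and 3.36 in WT. Irf3, the factor that nucleic acid sensors activate in most cells, was nearly level at 7.68 in Id cKO, 7.60 and 7.67 in the Id controls and 7.68 in WT. Usp18, the protease that removes the ubiquitin-like ISG15 and dampens signalling, stayed near the limit at 5.99 in Id cKO, 6.06 and 5.50 in the Id controls and 5.94 in WT.

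Id cKO carried the highest level of the 4 arrays for 22 of these 42 members (52.4%), where it was the highest array for 26.1% of 10975 genes. Id control 2 carried the lowest level for 19 members (45.2%), against 20.6% of genes. WT was lowest for 14 members (33.3%), close to its share over all genes (32.6%), and highest for 7 (16.7%, against 20.5% of genes). The 22 members highest in Id cKO included Irf1, Irf2, Irf7, Irf8 and Stat2, the sensor gene Ddx58, and Rsad2, Ifit2, Xaf1, Bst2, Gbp4, Gbp7 and Gbp9. Id control 1 was highest for 10 (23.8%, close to its 25.1% of genes), among them Ifit1, Ifit3, Gbp3, Gbp5, Irf9 and Iigp1.

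**Figure D1:**
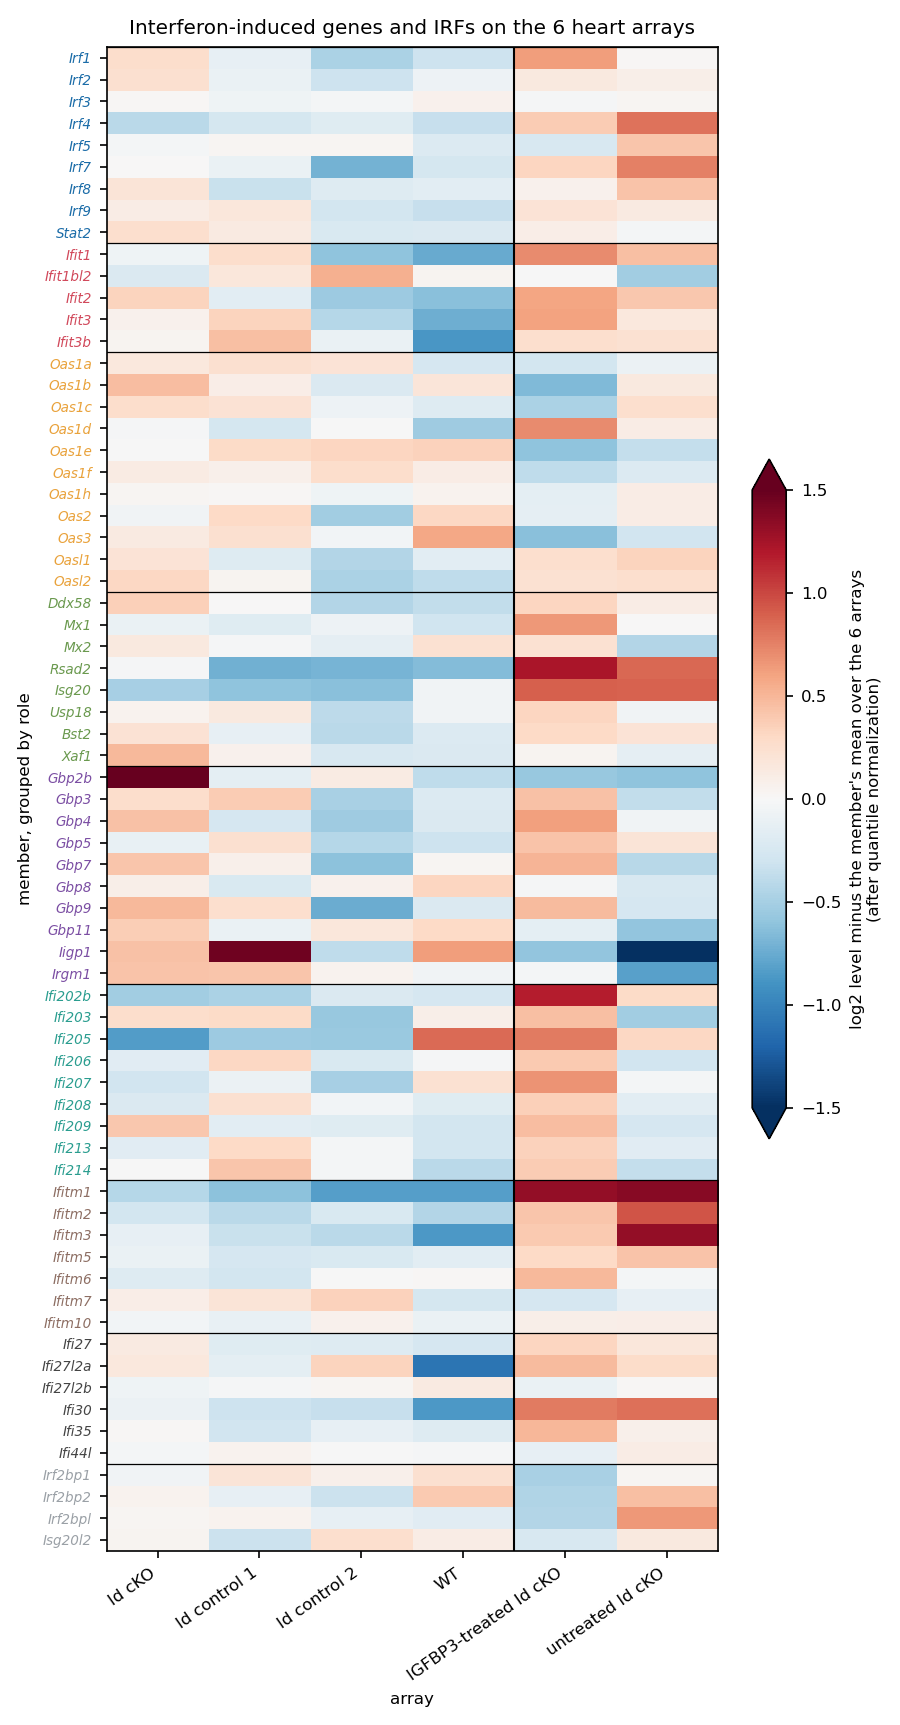
Log2 level of each of the 69 members (rows, grouped by role) on each array (columns), after quantile normalization and minus the member's mean over the 6 arrays; colours saturate at 1.5. Gbp2b is highest in Id cKO, Iigp1 highest in Id control 1 and lowest in untreated Id cKO, and Ifitm1 to Ifitm3 are highest on the incubated pair, right of the vertical line.

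The comparison of Id cKO with WT asked what loss of both Id genes does to the adult heart. Of the 69 members, 43 were compared, since the higher of the 2 levels was at least 6, with 33 higher in Id cKO (76.7%, against 50.8% of genes) and 10 lower (49.2% of genes). The median difference was 0.41 on the log2 scale over these 43, against 0.00 over the 11478 genes compared, and 0.24 over all 69 members with no lower limit, against -0.03 over all genes. At 1.5-fold or more, 14 members (32.6%) were higher and 1 lower, where 6.94% of genes were higher and 3.35% lower (10.3% in all). At 2-fold, the limit in the design text, 3 members differed, 2 higher and 1 lower (6.98%), against 3.17% of genes (2.2% higher and 0.967% lower). Gbp2b, Ifi27l2a, Ifit1 and Ifit3 passed the lower limit only through their level in Id cKO. With 1 array a group there is no test, and sex pattern and genotype cannot be told apart.

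Gbp2b, a guanylate-binding GTPase, was furthest apart. It was at 6.72 in Id cKO, against 4.86 in WT, 3.63-fold higher, and at 5.01 and 5.23 in the Id controls. Only Id cKO stood out, since the other 3 arrays lay within 0.37 of each other and below 6. Its promoter above holds the response element core, as do those of its neighbours Gbp3, Gbp5 and Gbp7. These neighbours were less apart, Gbp7 at 8.28 in Id cKO and 7.87 in WT, Gbp3 at 7.57 and 7.07, and Gbp5 at 6.16 and 6.02. In the other Gbp cluster, Gbp9 was at 8.13 in Id cKO and 7.41 in WT and Gbp4 at 7.97 and 7.28, while Gbp11 was at 6.19 and 6.16. Irgm1, an immunity-related GTPase that regulates its relatives on membranes, was at 7.52 in Id cKO and 7.00 in WT. Iigp1, of the same family, did not share this and was at 7.43 in Id cKO and 7.58 in WT.

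Among transcription factors, 7 of the 8 compared exceeded WT in Id cKO, where 50.8% of genes did, with a median of 0.35. Irf1, which interferon gamma induces within hours, was at 7.98 in Id cKO and 7.36 in WT. Stat2 was at 7.53 in Id cKO and 7.03 in WT, and its partner Irf9 at 7.42 and 6.95. Irf2, which often opposes Irf1, was 0.35 higher, Irf8, a factor of myeloid cells, 0.35, Irf7, which amplifies type I interferon production, 0.30, and Irf5, a factor of myeloid cells too, 0.15. Of these, Irf1 alone reached 1.5-fold. A second probe set of Irf1, with a lower level, gave 0.12.

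Among sensors and other antiviral effectors 4 of 5 compared were higher in Id cKO (median 0.65), where 50.8% of genes were. Higher too were all 3 Ifit genes compared (median 0.71) and 2 of 3 Oas genes (median 0.37). Ifit1 and Ifit3 were compared only through their level in Id cKO, so they could only be higher there. Of the Ifit genes left out by the lower limit, Ifit3b was higher in Id cKO (1.03) and Ifit1bl2 lower (-0.32). Ddx58, which encodes the RNA sensor RIG-I, was at 7.84 in Id cKO and 7.08 in WT. Ifit2, whose product restrains translation of viral RNA, was at 7.37 in Id cKO and 6.42 in WT, close to 2-fold. Ifit3 (0.71 higher) and Ifit1 (0.61 higher) came next in that family. Rsad2, which encodes the antiviral enzyme viperin, was at 7.63 in Id cKO and 6.98 in WT. Oasl2, a relative of the oligoadenylate synthetases, was 0.70 higher and Oasl1 0.37 higher, whereas Oas2, a synthetase, was at 6.39 in Id cKO and 6.74 in WT. Xaf1, a proapoptotic interferon target, was 0.65 higher, and Bst2, the tether of budding virus particles, 0.47. Isg20, an exonuclease, was at 6.69 in Id cKO and 7.09 in WT.

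Of the Ifi200 family, cytosolic and nuclear DNA-binding proteins, 3 of 9 were compared, 1 higher and 2 lower. Ifi205 was at 6.46 in Id cKO and 8.10 in WT, 3.11-fold lower, although its promoter too holds the core. The neighbouring Ifi207 was at 6.87 in Id cKO and 7.33 in WT, and Ifi203 at 7.80 and 7.58. Of the remaining groups, Ifi27l2a was at 7.04 in Id cKO and 5.84 in WT, 2.28-fold higher. Ifi30, a lysosomal thiol reductase of antigen processing, was 0.78 higher, and Ifitm3, a membrane protein that blocks virus entry, also 0.78 higher, at 10.62 in Id cKO and 9.84 in WT. Ifitm1 and Ifitm2 were 0.41 and 0.21 higher. The 4 genes matched by name alone had a median of -0.14, with Irf2bp2 at 9.08 in Id cKO and 9.40 in WT, and Irf2bp1 at 7.36 and 7.59.

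**Figure D2:**
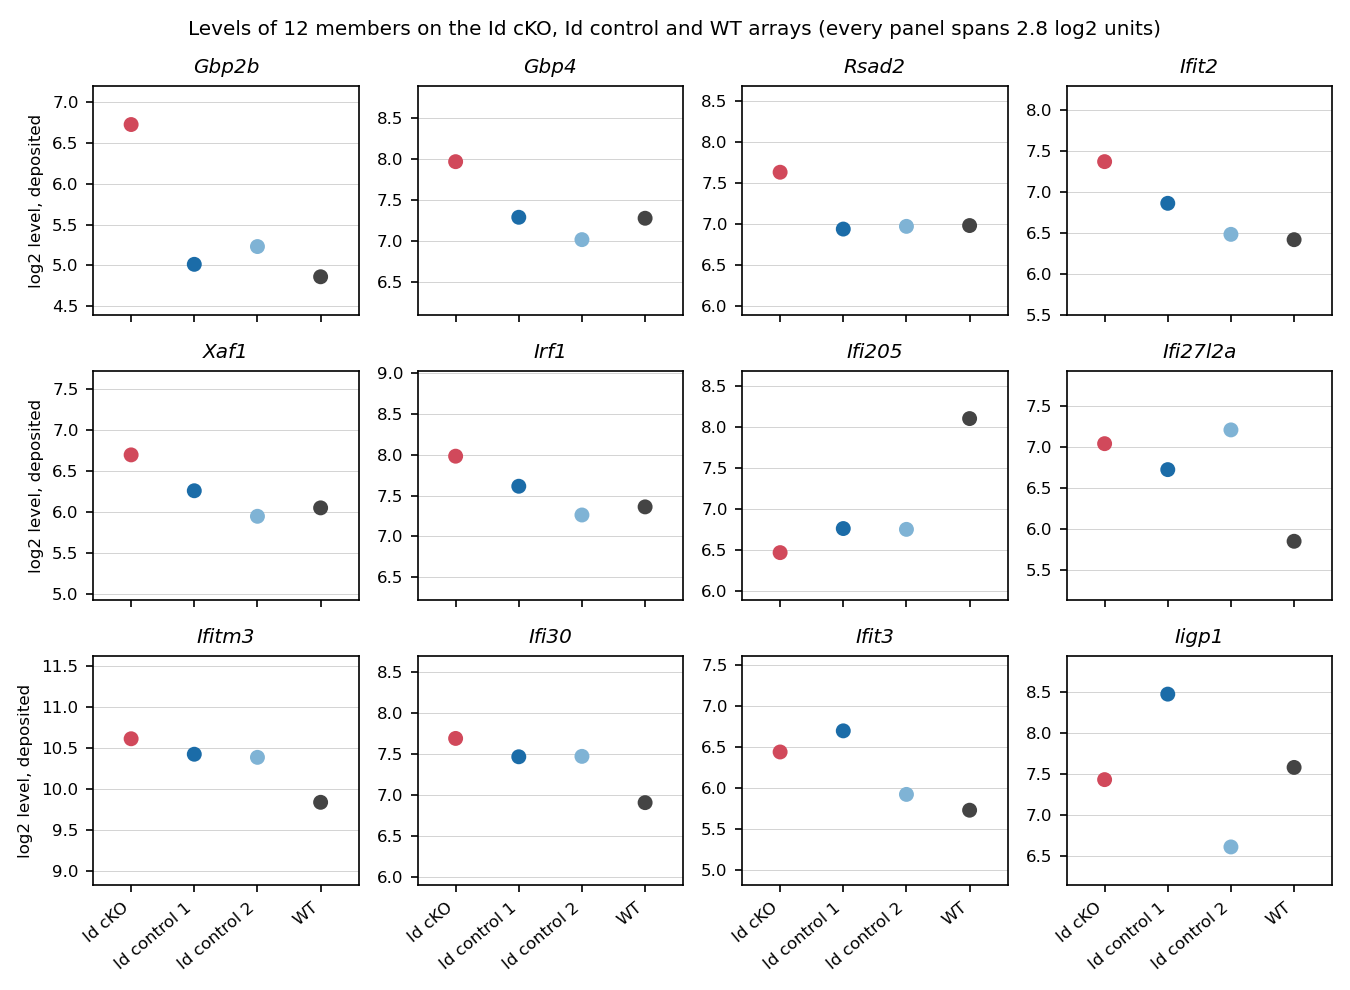
Deposited log2 level (vertical axis) of 12 members on the Id cKO, Id control and WT arrays, 1 point an array, each panel spanning 2.8 log2 units. Id cKO is the highest point for Gbp2b, Gbp4, Rsad2, Ifit2, Xaf1 and Irf1, WT stands apart from the other 3 for Ifi205, Ifi27l2a, Ifitm3 and Ifi30, and the 2 Id controls are furthest apart for Iigp1.

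Against the Id control hearts, which share the female pattern, 38 of 43 members compared were higher in Id cKO than the Id control mean (88.4%, against 45.3% of genes) and 5 lower (54.7% of genes), with a median of 0.23 against -0.03 over 11310 genes. Above both Id control arrays lay 26 members (60.5%), against 33.5% of genes, and 4 lay below both (9.3%, against 41.9%). At 1.5-fold from both arrays, 3 members were higher (6.98%, against 2.63% of genes) and 0 lower (2.37% of genes). At 2-fold from both, Gbp2b alone differed (2.33%, against 1.12% of genes), and it, like Gbp11, passed the lower limit only through Id cKO. It was joined by Gbp9 (1.20 higher) when Id control replicate 1 was left out and by Iigp1 (-1.04) when replicate 2 was, and the median was 0.41 and 0.16 in these cases. In limma, 0 of the 43 members passed an adjusted p of 0.05, while 2 of all genes did (0.0177%). At an unadjusted p under 0.05 there were 7 of the 43 members, all higher, which is close to the share of all genes in either direction (13.5%). Only the Id control pair gives a spread in that fit, so the lone Id cKO array was assumed to vary like it.

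Gbp2b, compared only through its level in Id cKO because both Id controls lay below 6, exceeded the Id control mean by 1.60 ± 0.16 (limma SE), with an adjusted p of 0.139 in limma, the smallest among members. Gbp4 was at 7.97 in Id cKO, against 7.29 and 7.02 in the Id controls. Its difference of 0.81 ± 0.18 (SE) had an adjusted p of 0.236 in limma. Rsad2 was at 7.63 in Id cKO, against 6.94 and 6.97 in the Id controls, a difference of 0.68 ± 0.14 (SE) with an adjusted p of 0.236 in limma. Its level in WT (6.98) lay beside those of the Id controls, so Id cKO alone was apart. Ifit2 (0.70 ± 0.21), Xaf1 (0.59 ± 0.19), Oasl1 (0.53 ± 0.17) and Irf8 (0.47 ± 0.15) were the others at an unadjusted p under 0.05, with adjusted p from 0.323 to 0.341 in limma. Ddx58 (0.57 ± 0.23), Irf1 (0.54 ± 0.20), Bst2 (0.46 ± 0.18) and Irf2 (0.40 ± 0.16) also lay above both Id control arrays, as did Gbp7 (0.64 ± 0.32) and Gbp9 (0.70 ± 0.44). The second probe set of Irf1, with a lower level, gave 0.20. At the other end after Ifi205 (-0.29) were Irf2bp1 (-0.20), Iigp1 (-0.11), Ifi27l2b (-0.05), Irf5 (-0.05) and Ifitm2 (0.00). Other probe sets of Ifitm2 gave 0.04 and 0.26.

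The Ifit genes split in this comparison. Ifit2 lay above both Id controls, while Ifit1 was at 6.34 in Id cKO, between 6.66 in Id control 1 and 5.77 in Id control 2. Ifit3 was at 6.44 in Id cKO, between 6.70 and 5.92 in the same order. Members for which WT was the odd array lay close to the Id controls here. Ifi27l2a was at 7.04 in Id cKO, against 6.72 and 7.21 in the Id controls. Ifi205 was at 6.46 in Id cKO, against 6.76 and 6.75. Iigp1 was at 7.43 in Id cKO, inside the wide gap between 8.47 and 6.61 in the Id controls, with a limma SE of 0.80 around a difference of -0.11.

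**Figure D3:**
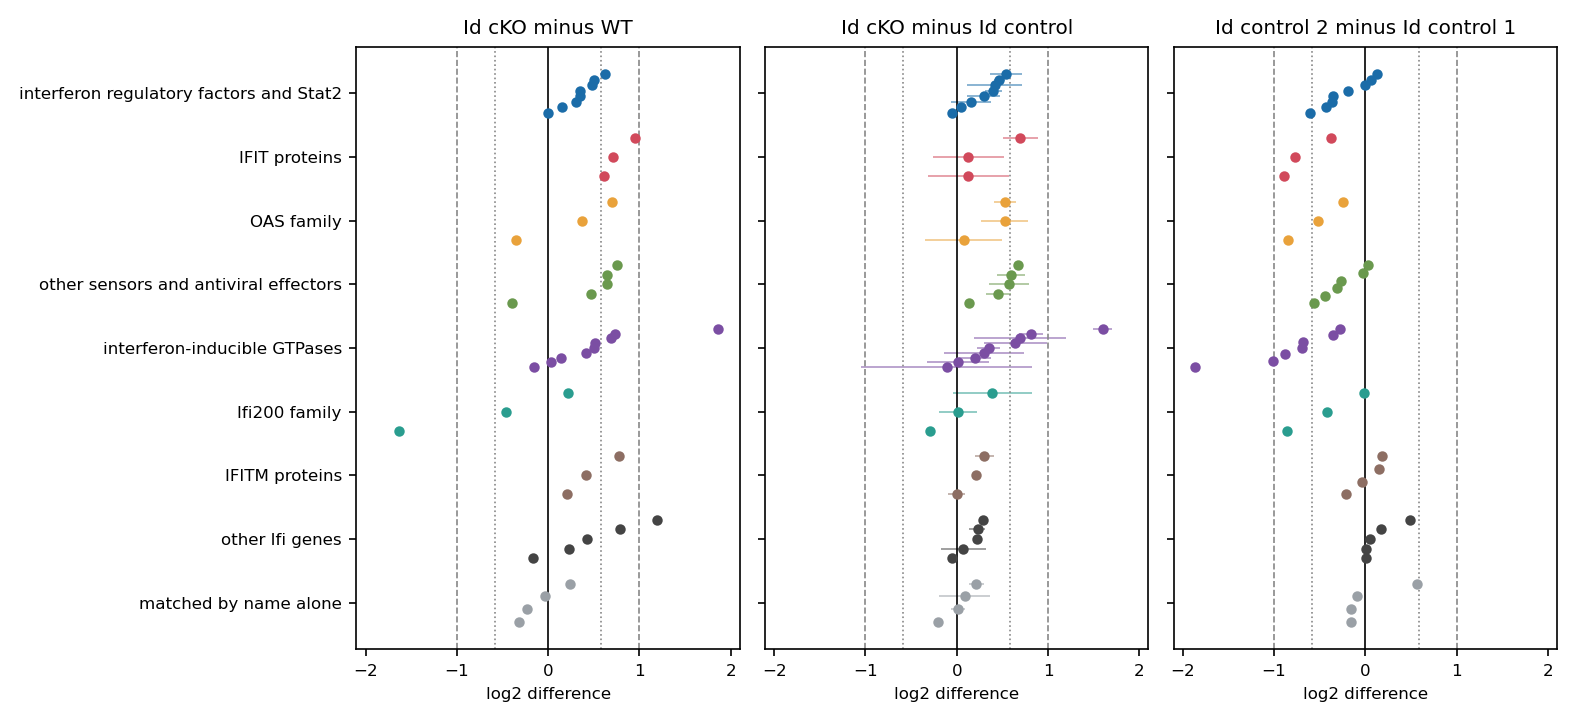
Log2 difference (horizontal axis) of each compared member, by role, in 3 comparisons, with lines in the middle panel from the difference to one Id control array to that to the other. Dotted lines mark 1.5-fold and dashed lines 2-fold. In the left panel 33 of 43 members lie right of 0, in the middle 38 of 43, and in the right panel 32 of 43 lie left of 0.

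Markers of other cells moved with some of these differences. The summed linear level of 8 endothelial markers was 7391 in Id cKO, 5481 and 5412 in the Id controls and 5053 in WT, and that of 12 macrophage markers 2340 in Id cKO, 2995 and 3057 in the Id controls and 2385 in WT. The macrophage sum was thus lower in Id cKO than in either Id control, and 3 of the 12 markers were higher, whereas 7 of 8 endothelial markers were higher. T cell markers summed to 310 in Id cKO, 310 and 294 in the Id controls and 308 in WT. All 7 dendritic cell markers exceeded the Id control mean in Id cKO (median 0.34), with a sum of 335 in Id cKO, 286 on each Id control array and 328 in WT, and 1 of them reached 6. Red cell markers summed to 246 in Id cKO, 302 and 277 in the Id controls and 795 in WT, and platelet markers to 341 in Id cKO, 424 and 397 in the Id controls and 803 in WT. Fibroblast markers summed to 7318 in Id cKO, 5964 and 10178 in the Id controls and 5030 in WT, and 4 atrial muscle markers to 16902 in Id cKO, 2696 and 26536 in the Id controls and 1434 in WT. Of these 4, Nppa carried the Id cKO sum, at 14.03 in Id cKO and 10.29 in WT. Myl7 was at 5.38 in Id cKO and 5.28 in WT, Myl4 at 6.81 and 6.69, and Sln at 4.70 and 5.18. In Id control 2, by contrast, Myl7 was at 12.27 and Myl4 at 12.97. The part of these cells' RNA in the members' levels was not tested.

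Id control against WT sets hearts with partial loss of Id alleles beside WT, and the module as a whole had a median near 0. The Id controls had the female pattern and WT the male one, so sex pattern and genotype cannot be told apart here. Id control 1 also has a date code of its own. Of 42 members compared, 23 were higher in Id control (54.8%, against 60.1% of genes) and 19 lower (39.9% of genes), with a median of 0.02 against 0.05 over 11407 genes. Without Id control replicate 1 the median was -0.08 and without replicate 2 it was 0.19. On both arrays 14 members were higher (33.3%, against 45.5% of genes) and 11 lower (26.2%, against 28.5%). By limma 0 members and 0 genes (0.0%) passed an adjusted p of 0.05. At an unadjusted p under 0.05 were 6 of the 42 members, 3 higher and 3 lower, and 7.26% of genes. Ifi205 alone was 2-fold lower on both arrays (2.38%, against 0.202% of genes 2-fold apart, 0.105% higher and 0.0964% lower). Ifi27l2a, Ifit1 and Ifit3 passed the lower limit only through Id control, and Gbp11 only through WT. At 1.5-fold from both arrays Ifi27l2a (higher, as 0.938% of genes) joined it, 2 members against 1.37% of genes. When Id control replicate 1 was left out, Ifi27l2a also differed by 2-fold, at 1.36.

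Ifi205 was at 6.76 and 6.75 in Id control, against 8.10 in WT, and its difference of -1.35 ± 0.14 (SE) had an adjusted p of 0.593 in limma. After quantile normalization it was at 7.68 in the treated Id cKO heart and 7.21 in the untreated one, nearer to WT (7.75) than to Id cKO (6.06). The level of Ifi205 was thus high in the 3 hearts with the male pattern and low in the 3 with the female one, as the heat map of all members shows, and the part of sex in it was not tested. Ifi27l2a was at 6.72 and 7.21 in Id control, against 5.84 in WT, 1.12 ± 0.24 (SE) higher with an adjusted p of 0.629 in limma. It did not follow the same split, since it was at 6.93 in the treated heart, 6.73 in the untreated heart and 5.36 in WT after quantile normalization. Ifi30 (0.56 ± 0.14) and Ifitm3 (0.57 ± 0.14) were higher and Isg20 (-0.53 ± 0.14) and Irf2bp2 (-0.54 ± 0.15) lower at an unadjusted p under 0.05, each with an adjusted p of 0.629 in limma. Ifit3 was at 6.70 and 5.92 in Id control and 5.73 in WT, so that Id control 2 lay near WT and Id control 1 apart. Ifit1 (0.49) and Irf9 (0.32) were higher too, and Ifi207 (-0.47), Oas2 (-0.43) and Gbp11 (-0.32) lower, each with an unadjusted p above 0.05 in limma.

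The 2 Id control hearts differed from each other in the module. Id control 2 (Tie2Cre+Id1-/-Id3+/-) was below Id control 1 (Id1F/+Id3-/-) for 32 of 43 members compared (74.4%) and above it for 11, where 50.0% of genes lay on either side, with a median of -0.27 against 0.00 over 11244 genes and -0.16 over all 69 members. At 1.5-fold, 10 members were lower (23.3%, against 1.34% of genes) and 0 higher, where 3.45% of genes were. Of the 10, Gbp5, Ifit1, Ifit3 and Oas2 passed the lower limit only through Id control 1, where they were high, as did Usp18 and Xaf1 among the others compared. At 2-fold, Iigp1 and Gbp9 were lower (4.65%, against 0.169% of genes). Genotype and date code change together between these arrays and cannot be told apart. The labels put both hearts in 1 group, so this difference is also the spread that limma used above.

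Iigp1, an immunity-related GTPase that attacks the vacuoles of intracellular parasites, stood at 6.61 in Id control 2, against 8.47 in Id control 1, 3.65-fold lower. Gbp9 was at 6.93 in Id control 2, compared with 7.94 in Id control 1. All 7 GTPase genes compared were lower in Id control 2, where 50.0% of genes were, with a median of -0.69. Among them were Gbp3 (-0.88), Gbp7 (-0.69) and Gbp5 (-0.69), the last compared only through Id control 1. The 3 left out by the lower limit were higher there, Gbp8 (0.26), Gbp11 (0.25) and Gbp2b (0.22), and the median of all 10 was -0.52. Ifit1 was at 5.77 in Id control 2, compared with 6.66 in Id control 1, and Ifit3 (-0.78) followed it. Oas2 (-0.84), Ifi203 (-0.86), Irf7 (-0.61), Usp18 (-0.56) and Oasl2 (-0.52) were lower too, as were Irf9 (-0.43), Stat2 (-0.36) and Irf1 (-0.35, and -0.04 by its second probe set). A few members did not share this: Rsad2 was at 6.97 in Id control 2, compared with 6.94 in Id control 1, Ifi30 at 7.47 and 7.46, Ifitm3 at 10.39 and 10.43, and Ifi205 at 6.75 and 6.76. The highest differences among members compared were those of Isg20l2 (0.57), Ifi27l2a (0.48), Ifitm2 (0.19), Ifi35 (0.17), Ifitm10 (0.16) and Irf8 (0.12). The macrophage marker sum was 3057 in Id control 2 and 2995 in Id control 1, and the T cell sum 294 and 310. Fibroblast markers summed to 10178 in Id control 2 and 5964 in Id control 1, and the 4 atrial muscle markers to 26536 and 2696, so the 2 samples also differed in tissue makeup. The part of that makeup in the members' levels was not tested.

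The treated and untreated Id cKO hearts address whether IGFBP3 alters the knockout heart. Among the 40 members compared, 25 were higher with IGFBP3 (62.5%, against 52.0% of genes) and 13 lower (47.1% of genes), with a median of 0.15 against 0.02 over 10046 genes, and 0.14 over all 69 members. The groups of the module went apart. At 1.5-fold, 9 members were higher (22.5%, against 7.31% of genes), 6 of them GTPases, and 4 lower (10.0%, against 6.35%). Iigp1 and Irgm1 passed the lower limit only through the treated array, and Irf5 and Oas2 only through the untreated one. At 2-fold, 1 member, Irf2bpl, was lower (2.5%, against 1.24% of genes apart). After centring each array on its median, 3 members were 2-fold higher, Gbp7, Ifi203 and Iigp1, and 0 lower, and the median of all genes was 0.09. Over all genes the 2-fold split was 57 higher and 68 lower as deposited, 47 and 87 after quantile normalization and 80 and 44 after centring. Each group is 1 array, so there is no test.

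All 7 GTPase genes compared were higher with IGFBP3, where 52.0% of genes were, with a median of 0.79. Iigp1 and Irgm1 were compared only through the treated array. With no lower limit 9 of the 10 GTPase genes were higher, with a median of 0.73. Gbp7 was at 7.23 in the treated heart and 6.25 in the untreated one, as deposited. Iigp1 was at 5.17 in the treated heart and 4.19 in the untreated, Gbp3 at 6.55 and 5.72, Irgm1 at 5.85 and 5.06, Gbp9 at 6.96 and 6.20, and Gbp4 at 6.97 and 6.28. These families are known as targets of interferon gamma. The 3 Ifi200 genes compared were higher in the treated heart, with Ifi203 at 6.80 treated and 5.81 untreated, Ifi207 at 6.64 and 5.91 and Ifi205 at 6.89 and 6.39. Irf1 was at 7.16 in the treated heart and 6.51 in the untreated, but its other probe set, lower in level, ran the opposite way at 4.49 and 4.75.

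Other members were lower with IGFBP3. Ifitm3 was at 9.96 in the treated heart and 10.88 in the untreated, and Ifitm2 at 8.81 and 9.28. Irf2bpl was at 6.58 in the treated heart and 7.62 in the untreated, and Irf2bp2 at 7.42 and 8.24. Irf2bp1 (-0.50) and the factors Irf5 (-0.70), Irf7 (-0.41) and Irf8 (-0.36) were lower as well. All 3 Ifit genes compared were higher (Ifit3 by 0.45, Ifit1 by 0.27 and Ifit2 by 0.21), as were Rsad2 (0.41) and Ddx58 (0.25), whereas Oas2 (-0.29) and Oasl1 (-0.07) were lower. Irf3, Oasl2, Gbp2b and Ifit3b had exactly equal deposited values on both arrays, as had 1586 of 35557 probe sets, where no other 2 arrays shared more than 32. Among members with the response element core in the promoter, 13 of 14 were higher in the treated heart (median 0.43), and among those with a promoter but no core, 7 of 19 were. This split differed by comparison. In Id cKO against WT, 13 of 15 with the core and 15 of 20 without were higher, and against Id control 13 of 15 and 18 of 20. In Id control against WT it was 8 of 14 and 12 of 20, and in Id control 2 against Id control 1, 2 of 14 and 6 of 21. In untreated Id cKO against WT it ran the other way, with 8 of 14 (median 0.17) and 17 of 19 (median 0.58). In the treated against the untreated heart, the split by promoter overlapped the role groups. Those with the core included the GTPases Gbp3, Gbp5, Gbp7 and Irgm1 and the Ifi200 genes Ifi203, Ifi205 and Ifi207. Those without it included the 4 genes matched by name alone, all lower in the treated heart, from -1.04 to -0.40. The part of the core was not tested. The summed macrophage markers were at 1853 in the treated heart and 2369 in the untreated, and the endothelial markers at 4188 and 3714. Platelet markers summed to 454 in the treated heart and 298 in the untreated, with all 5 higher and a median of 0.46. Their part in the members' levels was not tested.

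**Figure D4:**
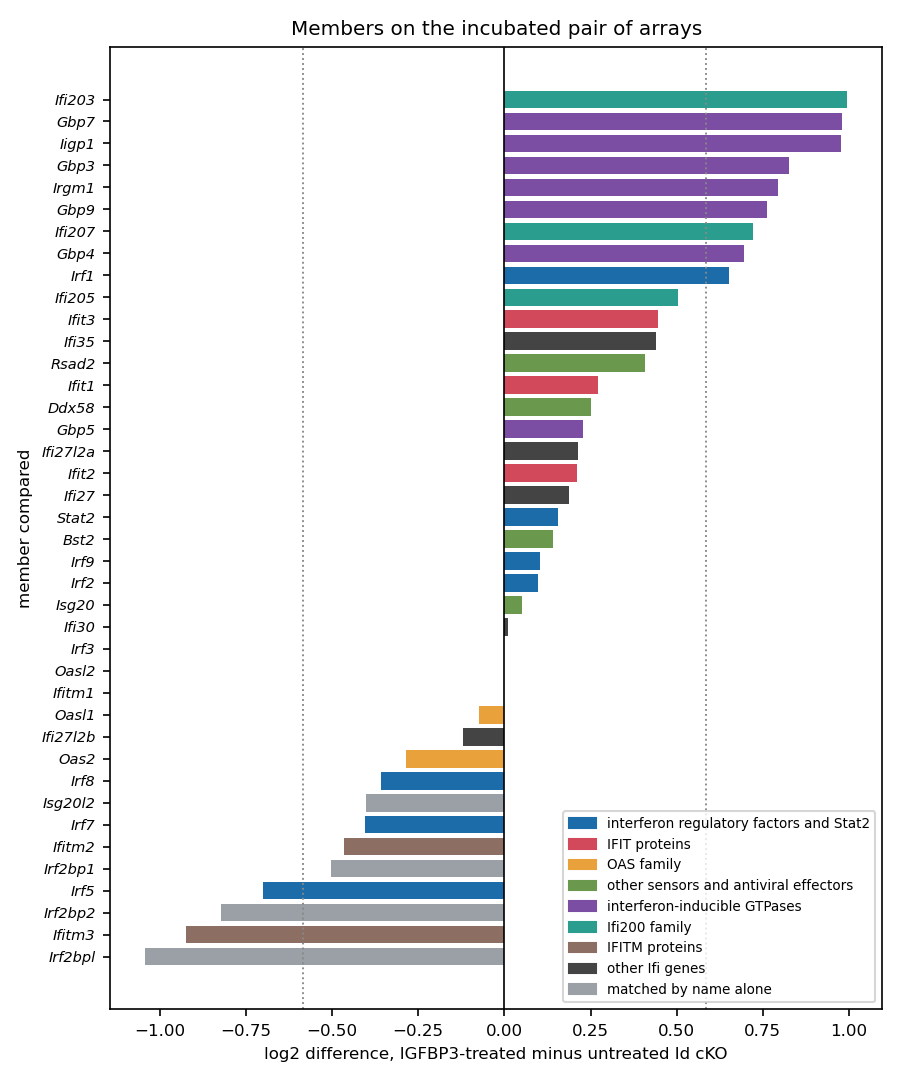
Log2 difference (horizontal axis) between the IGFBP3-treated and the untreated Id cKO array for each of the 40 members compared, coloured by role, with dotted lines at 1.5-fold. GTPase and Ifi200 genes fill most of the top, from 0.51 for Ifi205 to 0.99 for Ifi203, and the IRF2-binding proteins and Ifitm3 the bottom, down to -1.04 for Irf2bpl.

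After quantile normalization, the untreated Id cKO heart was set beside the same WT heart as Id cKO above. Date code, any difference in the handling of the incubated pair, and group cannot be told apart here, and 13.8% of genes were 2-fold apart. Of 40 members compared, 28 were higher in untreated Id cKO (70.0%, against 49.1% of genes) and 12 lower (50.9% of genes). At this limit 9 were 2-fold higher in untreated Id cKO (22.5%, against 7.75% of genes) and 1 lower (2.5%, against 6.0%). Ifi27l2a, Ifit1, Ifit2, Ifit3, Gbp5 and Irf5 passed the lower limit only through untreated Id cKO, and Iigp1 and Irgm1 only through WT. The median was 0.42 against -0.01 over 10317 genes, but 0.16 over all 69 members. The Ifitm genes led. Ifitm3 was at 11.65 in untreated Id cKO and 9.47 in WT, with 10.21 in the Id cKO heart of the other set. Ifitm1 was at 8.51 in untreated Id cKO and 6.32 in WT, with 6.72 in that Id cKO heart. Ifitm2 (1.39), Ifi30 (1.69), Rsad2, Ifi27l2a (1.38), Ifit1 (1.21), Ifit2 (1.04) and Irf7 (1.02) were 2-fold higher as well.

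Of 7 GTPases compared, 2 were higher in untreated Id cKO, Gbp5 (0.49) and Gbp4 (0.17), and 5 lower. Gbp5 was compared only through untreated Id cKO, and Iigp1 and Irgm1 only through WT. Iigp1 was at 5.04 in untreated Id cKO and 7.22 in WT, and Irgm1 at 5.86 and 6.63, while Gbp7 was 0.45 lower. All 3 Ifi200 genes compared were lower too, Ifi203 (-0.61), Ifi205 (-0.54) and Ifi207 (-0.26). Gbp2b, not compared because it was below the limit on both arrays, was at 4.12 in untreated Id cKO, 4.16 in the treated heart and 4.35 in WT, whereas the Id cKO heart of the other set had 6.31. Of the 6 arrays, that Id cKO heart alone thus had Gbp2b above 6. On the same scale Ifit2 was at 6.96 in Id cKO, 7.03 in untreated Id cKO and 6.00 in WT. Of 12 macrophage markers 10 were higher in untreated Id cKO than in WT (median 1.01), and of 8 endothelial markers all 8 (median 0.79). All 7 fibroblast markers (median 1.45) and all 6 neutrophil markers (median 0.61, each below 6 as deposited) were higher too, and 0 of 8 cardiomyocyte markers (median -0.40), and their part in the members' levels was not tested.

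A list of 85 genes of the interferon pathway outside the members covered ligands, receptors, kinases, sensors and further targets, of which 77 were measured. The ligand genes Ifnb1 and Ifng were below 6 on every array, with Ifnb1 at 4.53 in Id cKO, 4.50 and 4.26 in the Id controls and 4.79 in WT, and Ifng at 5.07, 5.31, 5.44 and 4.98 in the same order. Of the receptor chains, Ifnar1 was at 7.60 in Id cKO, 7.55 and 7.61 in the Id controls and 7.31 in WT, and Ifngr1 at 8.48, 8.41, 8.72 and 8.55. Ifngr1 was at 9.06 in the IGFBP3-treated heart and 8.54 in the untreated one, and after quantile normalization at 9.40 in untreated Id cKO and 8.20 in WT. The receptor chain gene Il10rb was at 10.35 in Id cKO and averaged 10.86 in Id control. In Id cKO against WT, 41 of 59 genes compared were higher (50.8% of all genes were) and 18 lower (median 0.19, against 0.00 over all genes), with 12 higher and 2 lower at 1.5-fold (6.94% and 3.35% of all genes). At 2-fold, Trim30a, an interferon-induced regulator, was at 7.80 in Id cKO and 6.69 in WT, and Tlr4, the receptor for bacterial lipopolysaccharide, at 8.04 and 7.02. Mlkl, the effector of necroptosis, was at 6.82 in Id cKO and 5.89 in WT, and Lgals9, a galectin, at 8.61 and 7.68.

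Against Id control, 41 of 59 pathway genes were higher in Id cKO (45.3% of all genes were), with a median of 0.13 against -0.03 over all genes, and 0 passed an adjusted p of 0.05 in limma. The largest differences were those of Mlkl (0.89 ± 0.16), Trim30a (0.81 ± 0.25), Slfn2 (0.79 ± 0.26) and the histocompatibility light chain gene B2m (0.76 ± 0.25), with adjusted p from 0.228 to 0.342 in limma. Between Id control 2 and Id control 1, 45 of 58 were lower (50.0% of all genes were), with a median of -0.18, led by Sp100 (-0.77), Psmb9 (-0.64), an immunoproteasome subunit, the peptide transporter gene Tap1 (-0.61) and Rtp4 (-0.59). In Id control against WT 35 of 58 were higher, close to the share of all genes (60.1%), the median was 0.05 as over all genes, and limma passed 0. Ube2l6 (-0.78), Lgals9 (0.50), Tlr4 (0.46) and Cxcl9 (-0.38) were furthest from 0. With IGFBP3, 36 of 57 were higher (52.0% of all genes were), with a median of 0.12 against 0.02 over all genes, among them Nampt (0.74), Tlr4 (0.71) and the RNA sensor gene Ifih1 (0.68), while the chemokine gene Cxcl10 was at 5.66 in the treated heart and 6.51 in the untreated. After quantile normalization Cxcl10 was at 7.34 in untreated Id cKO and at 4.02, below the lower limit, in WT. Socs3, a feedback inhibitor of cytokine signalling, was 2.31 higher, and Trim30a was at 7.69 in untreated Id cKO and 6.29 in WT. Lgals9 (1.47), Lgals3bp (1.36), Ifngr1, Ube2l6 (1.18) and the RNA-editing enzyme gene Adar (1.15) were also 2-fold higher in untreated Id cKO and Nampt (-1.48) lower, where 7.75% of genes were 2-fold higher and 6.0% lower.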

How the data were processed

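Expression was measured in 6 mouse heart samples on Affymetrix Mouse Gene 1.0 ST arrays. The deposited values are log2 levels, 1 per probe set, made by the authors with Affymetrix Expression Console and RMA, per the submitters' processing notes (versions not given in the sources used here). From these, 19938 genes were formed from 21789 probe sets with 1 symbol, and all 69 members matched the RefSeq table of GRCm38.p6 by Entrez identifier. Each difference subtracts the second-named group from the first, on deposited log2 values or on quantile-normalized values across the 2 sets. Genes entered a comparison if either group averaged 6 or more (for the incubated pair, after quantile normalization) and counted at 2-fold or 1.5-fold, from both Id control arrays where Id control is involved. limma (version 3.58.1, R 4.3.3) was fitted over 6 arrays in 5 groups with 1 residual degree of freedom. Benjamini-Hochberg adjustment was over all genes compared. The fit was also run on simulated data with changes larger than any member difference tested by limma, so that run does not address smaller changes. An exact permutation test of 2 arrays against 1 cannot go below p = 0.333. The number of arrays limits the precision. Marker sums add the linear levels of a list. Members named were the IRFs, Stat2 and main effectors, the 6 highest and 6 lowest in each comparison and all at 2-fold, and others beside them were picked after their values were seen. The members, lists and naming rule were chosen with earlier results of these data known. Promoters were searched over 250 bases before the start. Alternatives were other scalings, floors, probe set rules and fold limits, and leaving out each Id control array.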

Additional observations from a re-analysis of the deposited data

How the results depend on the processing

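The direction of the members' median held in the 34 alternatives for the medians except where stated. Of these, 31 stayed within 0.19, the SD of the members' median between the 2 Id control arrays. With a floor of 8, which leaves 8 members or fewer, the median was -0.23 for IGFBP3-treated against untreated Id cKO and 1.52 for untreated Id cKO against WT, which was 0.16 with no floor. For Id control against WT the median, near 0, was -0.08 and 0.19 without replicate 1 and replicate 2, and -0.05 after quantile normalization. Counts at 2-fold moved most. For Id cKO against WT, 3 became 1 with a floor of 8 and 15 at 1.5-fold. For Id control against WT, 1 became 2 at 1.5-fold and ranged from 1 to 2 with an array left out. For Id cKO against Id control, 1 became 0 with a floor of 8, 3 at 1.5-fold and 2 with either array left out. For the incubated pair, 1 became 3 after median centring and 13 at 1.5-fold. Between the Id controls, 2 became 1 after centring or with a floor of 8 and 10 at 1.5-fold. For untreated Id cKO against WT, 10 became 5 with a floor of 8 and 17 at 1.5-fold. Irf2bpl (-0.98) and Gbp9 (-0.99) were just short of 2-fold after centring. In limma 0 members passed under all 9 settings in both comparisons, with a smallest adjusted p among members, over the 8 settings with 1 value per gene, from 0.11 to 0.272 for Id cKO against Id control and from 0.376 to 0.674 for Id control against WT. No paired analysis was possible because every group but Id control has 1 array and the labels give no pairs.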
